A study of Mus musculus with 9 samples.

Results

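The circadian clock genes described here are 10 genes of mouse liver, read in 9 RNA-seq libraries from a study of the enzyme cystathionine gamma-lyase (gene symbol Cth), which makes cysteine and hydrogen sulfide. The genes were chosen by name, for their place in the clock, out of 54532 genes listed: the activators Arntl, Clock and Rora, the repressors Per1, Per2, Cry1, Nr1d1 and Nr1d2, and the output factors Dbp and Nfil3. There were 3 groups of 3 libraries: wild-type mice on drinking water, Cth knockout mice on drinking water, and Cth knockout mice given 1% betaine, a methyl donor, in the drinking water. The tissue of every library was liver, and RNA was selected by its poly-A tail. The labels name no strain, sex or age, do not say how the knockout was made or whether each library came from its own animal, and give no hour of collection or lighting schedule. The p-values therefore measure the spread between libraries, which may be technical in part.

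The clock is a loop of transcription that turns over about once a day in nearly every cell. The proteins of Arntl (BMAL1) and Clock bind as a pair to E-box sequences and switch on the Per and Cry genes, whose proteins return to the nucleus and block the pair. A second arm sets Arntl itself: RORA activates it, and NR1D1 and NR1D2 (REV-ERB alpha and beta) repress it, through the same response elements. DBP activates and NFIL3 represses genes with D-box sequences, which in liver include genes of drug, lipid and bile acid metabolism. Many of these messages swing strongly over the day in mouse liver, so a level read at an unstated hour is 1 point of a daily curve.

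The values are FPKM, fragments per kilobase of exon scaled to library depth, as the authors deposited them. The depth behind them, recovered from the steps between low values, was 15184553 to 17472550 reads per library. The deposited values are scaled to denominators of 13512768 to 18524447 reads, which differ from those totals, so that 3 reads in a 1 kb gene are worth 0.162 to 0.222 FPKM, for counting error only. The targeted gene fitted the labels: Cth stood at 219 to 285 FPKM in the wild-type libraries and at 0.278 to 0.781 FPKM in the 6 knockout libraries. The hepatocyte markers Alb, Ttr, Apoa1, Hnf4a and Cyp2e1 together stood at 30690 FPKM or more in every library. One wild-type library, replicate 3, was unlike the rest. It was the only library with Xist (26.6 FPKM, against at most 0.0124 in the others) and the only one with Ddx3y at 0, and it lay outside the range of the other 8 libraries for 39.8% of the genes tested, against 14.8% to 29.3% for each of the others. Values without it are given beside the results it changes most.

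Levels within the wild type spanned a wide range. Nfil3 was the highest, at 41.9 to 62.5 FPKM over the 3 libraries, and no other member came near it. Cry1 (7.45 to 10.9 FPKM) and Rora (6.12 to 9.26 FPKM) followed and overlapped each other. Below them stood Clock (4.76 to 5.82 FPKM), which did not reach the lowest Rora value, and then Nr1d1, Nr1d2, Arntl and Per1, each of which overlapped its neighbour in the order. Per2 (0.458 to 0.869 FPKM) and Dbp (0.127 to 0.240 FPKM) were the lowest, apart from each other and from the rest. Dbp is one of the most strongly cycling messages of the liver. Here it was represented by 3 to 19 reads per library and had a mean under 0.5 FPKM over the 9 libraries, so it was not tested, and 9 of the 10 members were.

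**Figure D1:**
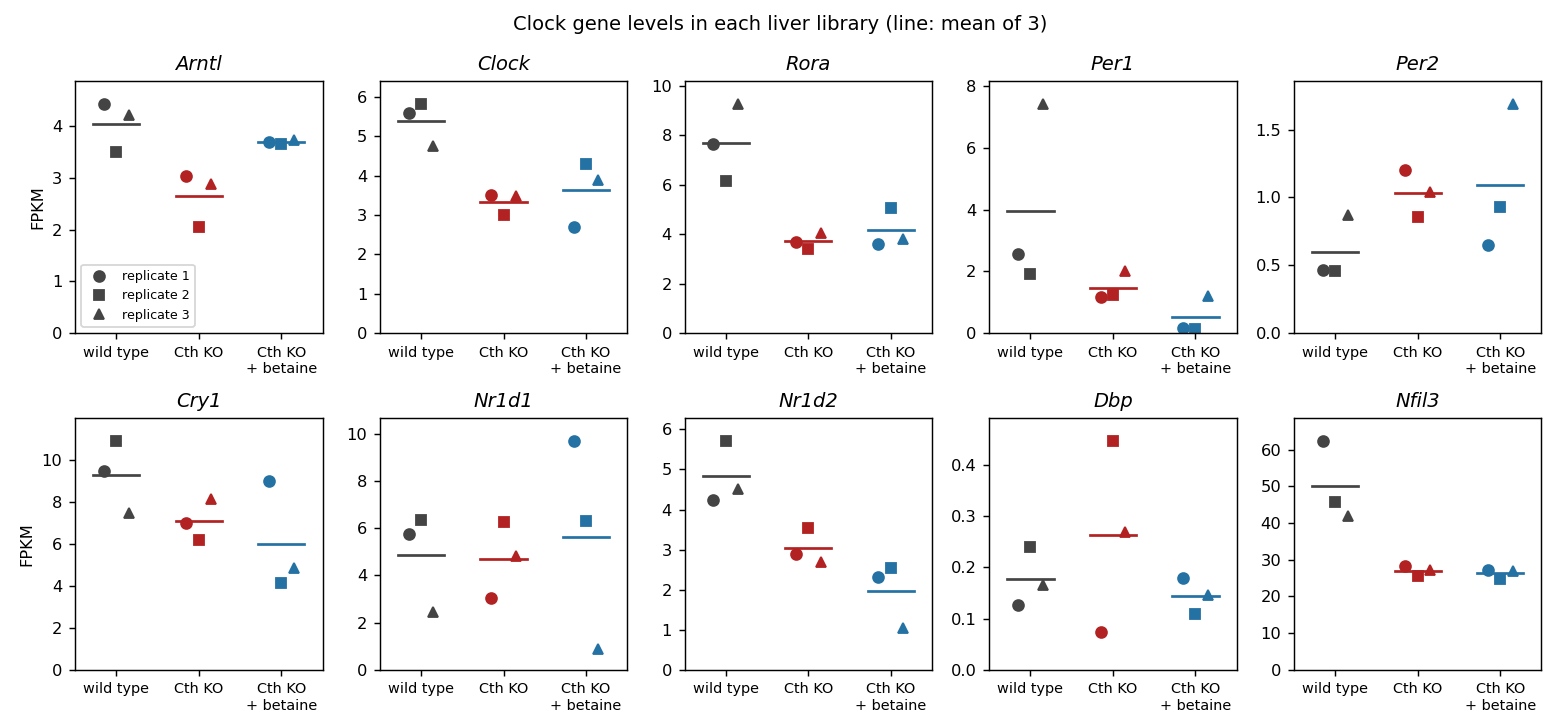
FPKM of the 10 clock genes (vertical axes, linear from 0) in each library, by group along the horizontal axes; symbols mark replicates and the line is the mean of 3. Nfil3 and Rora in the wild type lie above every knockout library with or without betaine, while Nr1d1 in the betaine group runs from 0.890 to 9.72 FPKM.

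In the knockout without betaine, 4 of the 9 tested members were lower than in the wild type and none was higher (limma, Benjamini-Hochberg adjusted p under 0.05 over all 11852 genes tested). The 4 were Nfil3, Rora, Clock and Arntl. Among all genes tested 25.6% passed in this comparison, 12.7% of them lower and 12.8% higher as shares of the genes tested, so that many genes outside the clock moved as well. The median log2 difference of the 9 members was -0.59, against 0.01 over all genes tested. Differences are on the scale of log2(FPKM + 0.5), which understates those of low genes such as Per2.

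Nfil3, the repressor of D-box genes, read 62.5, 45.8 and 41.9 FPKM in wild type replicates 1, 2 and 3. In the knockout it read 28.2, 25.4 and 27.2 FPKM. The lowest wild-type library stood well above the highest knockout library. The fitted log2 difference was -0.86 ± 0.15 (SE, n = 3 per group, limma adjusted p = 0.00792), and the call held in each of 9 fits that left out 1 library. Nfil3 (chromosome 13, 52967209 to 52981073, minus strand, GRCm38) has the shortest exons of the 10 members, 2026 bases in all, which bears on the check of length below.

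The RefSeq promoter of Nfil3 holds, close to its start, a match to a half-element that ROR and REV-ERB proteins bind. It is shown because Rora, Nr1d1 and Nr1d2 are members and Nfil3 was the member with the smallest p. The window is chr13:52981040-52981088 on the minus strand of GRCm38.p6, printed 5′ to 3′ as transcribed, with the match in capitals.
Nfil3: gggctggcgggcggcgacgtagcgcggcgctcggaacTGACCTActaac
The letters searched for were TAGGTCA and TGGGTCA on both strands. Each window searched was the 250 bases before an annotated start, and only these exact letters counted. Among the promoter windows found for the members, those of Arntl included, only the Nfil3 window held a match. Elements further upstream, after the start or with other letters were not searched for, in Arntl or any other member. The match is on the opposite strand and begins 12 bases before the start. It is a description of letters, and the whole upstream window searched, of which the printed bases are a part, is of the length for which 5.38% of 32851 promoter windows hold 1 or more such matches.

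Rora, the activator of Arntl, read 7.64, 6.12 and 9.26 FPKM in the wild type. The knockout libraries read 3.69, 3.39 and 4.04 FPKM. The groups did not overlap, and the highest wild-type value was that of replicate 3. The log2 difference was -0.94 ± 0.17 (n = 3 per group, limma adjusted p = 0.00826), and it was -0.81 ± 0.17 without wild type replicate 3 (limma adjusted p = 0.0163). This call too held in all 9 fits that left out 1 library.

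Clock, the partner of Arntl and itself an acetyltransferase, read 5.58, 5.82 and 4.76 FPKM in the wild type and 3.50, 3.01 and 3.49 FPKM in the knockout. Every wild-type library lay above every knockout library. The log2 difference was -0.62 ± 0.17 (n = 3 per group, limma adjusted p = 0.0264). It kept its direction but passed the threshold in only 4 of 9 fits that left out 1 library. The call was lost without wild type replicate 1 (limma adjusted p = 0.0738), wild type replicate 2 (0.067) and each of knockout replicates 1, 2 and 3 (0.0556, 0.0986 and 0.0596).

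Arntl, the DNA-binding activator without which the loop stops, read 4.43, 3.50 and 4.22 FPKM in the wild type. It read 3.04, 2.04 and 2.89 FPKM in the knockout. The groups did not overlap, with a small gap between wild type replicate 2 and knockout replicate 1. The log2 difference was -0.54 ± 0.15 (n = 3 per group, limma adjusted p = 0.0313), and it passed in 5 of the 9 fits. It was lost without wild type replicate 1 (limma adjusted p = 0.0963), wild type replicate 3 (0.0655), knockout replicate 2 (0.112) or knockout replicate 3 (0.056).

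The repressors gave no call in this comparison. Nr1d2, the REV-ERB beta gene, read 4.24, 5.72 and 4.52 FPKM in the wild type and 2.89, 3.53 and 2.68 FPKM in the knockout. All 3 wild-type libraries were higher, but the log2 difference of -0.59 ± 0.25 did not pass (n = 3 per group, limma adjusted p = 0.106). Of the 9 fits without 1 library, the fit without betaine replicate 3 passed (limma adjusted p = 0.0311). A fit of the 6 libraries compared (0.0356) and the common-sum scale described below (0.0263) also passed. Cry1, the stronger of the Cry repressors, overlapped between the groups, at 9.49, 10.9 and 7.45 FPKM against 7.0, 6.16 and 8.14 FPKM (log2 difference -0.36 ± 0.26, limma adjusted p = 0.326). Nr1d1, REV-ERB alpha, read 5.76, 6.36 and 2.44 FPKM in the wild type and 3.05, 6.25 and 4.82 FPKM in the knockout. Its log2 difference of 0.01 had a 95% interval from -1.59 to 1.61, so changes of that size in either direction were not detectable at this spread (limma adjusted p = 0.997). Without wild type replicate 3, its lowest wild-type library, the difference was -0.38 (limma adjusted p = 0.742).

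Per1, a repressor that glucocorticoids also induce, depended on 1 library. It read 2.55 and 1.92 FPKM in wild type replicates 1 and 2 and 7.43 FPKM in replicate 3, against 1.17, 1.23 and 2.0 FPKM in the knockout. Only wild type replicate 3 stood far above the rest, and wild type replicate 2 lay below knockout replicate 3. The log2 difference was -1.01 ± 0.50 with all libraries and -0.49 ± 0.42 without that one (limma adjusted p = 0.163 and 0.417). Per2, the other Per repressor, read 0.466, 0.458 and 0.869 FPKM in the wild type and 1.20, 0.854 and 1.04 FPKM in the knockout. It was the 1 member besides Nr1d1 with a positive difference (0.50 ± 0.25, limma adjusted p = 0.173). The overlap came from wild type replicate 3 alone, and without that library the difference was 0.67 ± 0.26 (limma adjusted p = 0.0989). The fitted differences of Per1 and Per2 thus had opposite signs, but both genes overlapped between the groups and neither passed the threshold.

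Per1 and Cry1 are textbook E-box genes, and the windows below show the E-box (CACGTG, a palindrome, so both strands read alike) that was found before 1 annotated start of each. They are printed because the Arntl and Clock proteins bind this sequence. Any effect of the Arntl and Clock messages on Per1 or Cry1 was not tested. Each is 5′ to 3′ on the gene's strand of GRCm38.p6 from RefSeq, with the E-box in capitals: Cry1 at chr10:85185072-85185151 (minus strand) and Per1 at chr11:69098746-69098825 (plus strand).
Cry1: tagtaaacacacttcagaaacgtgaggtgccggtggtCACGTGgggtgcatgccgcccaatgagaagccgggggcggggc
Per1: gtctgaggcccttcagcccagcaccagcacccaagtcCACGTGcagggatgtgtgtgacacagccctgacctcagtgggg
The E-box begins 60 bases before the Cry1 start and 166 bases before that Per1 start. Of all 32851 promoter windows 6.02% hold this E-box. Promoters were found for 9 of the 10 members, Per2 being the exception, and no D-box (TTATGTAA or TTACGTAA, held by 0.931% of windows) was found in any of them. The windows of the other members, Nr1d1, Nr1d2 and Dbp included, held no such E-box, nor did the window at the other Per1 start. These windows too were the 250 bases before a start, searched for exact letters only. E-boxes or D-boxes elsewhere in these genes, or with other letters, would not have been found.

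Counted by overlap alone, 5 members were lower in every knockout library than in every wild-type library (Nfil3, Rora, Clock, Arntl and Nr1d2) and none was higher throughout. The shares over all genes tested were 23.2% lower and 23.6% higher. Without wild type replicate 3 the count was 6 lower, Cry1 being added, and 1 higher, Per2, where 30.3% and 28.7% of all genes did the same. By the adjusted p without that library, 3 members stayed lower (Nfil3, Rora and Clock), beside 11.6% of all genes lower and 10% higher.

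Exon length moved with this comparison. Of the third of genes with the longest exons (5245 bases or more) 24.2% were lower in the knockout and 3.85% higher, while of the third with the shortest (2677 bases or fewer) 2.81% were lower and 24.1% higher. Clock (13727 bases) and Rora (13071 bases) are among the longest, and Arntl (7523 bases), Per2 (5856 bases), Per1 (5631 bases) and Nr1d2 (5409 bases) also lie in the longest class. With each library's smooth trend against exon length subtracted, 2 members remained lower, Nfil3 (log2 difference -1.14 ± 0.14, limma adjusted p = 0.00667) and Rora (-0.61 ± 0.14, 0.0218), beside 9.54% of all genes. Clock (-0.29 ± 0.15, limma adjusted p = 0.205) and Arntl (-0.30 ± 0.14, 0.169) no longer passed. With wild type replicate 3 also left out, the same 2 members were lower, beside 8.47% of all genes. Nfil3, whose exons are short, stood further from 0 after the subtraction. On values rescaled to a common sum per library (TPM, which divides by the library's summed FPKM), 6 members were lower, Cry1 and Nr1d2 being added, but 31% of all genes were lower too, since that rescaling moved the median of all genes by -0.36. Beyond this subtraction, the part of exon length in these differences was not tested.

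**Figure D2:**
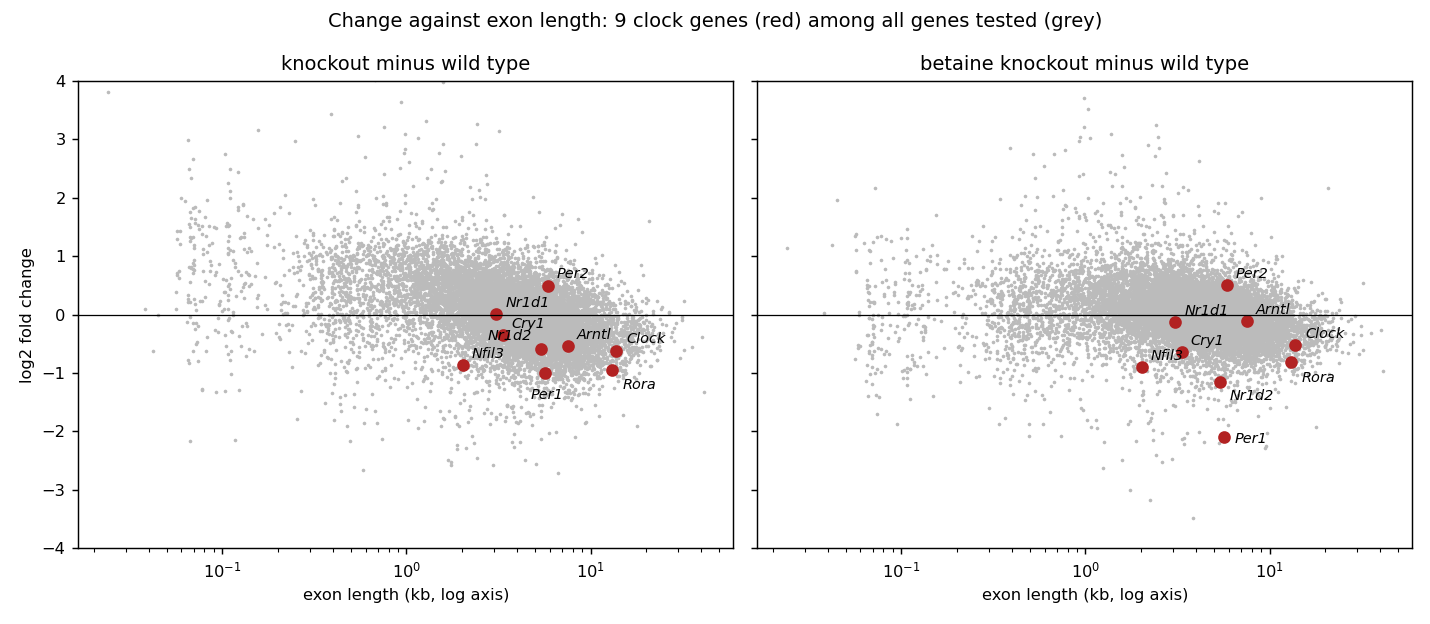
Log2 difference (vertical axis) of every gene tested (grey) and of the 9 tested clock genes (red) against exon length in kb (horizontal axis, log scale), for the 2 comparisons with the wild type; 11 genes on the left and 2 on the right lie beyond the axis, which ends at 4 in each direction. The grey cloud slopes down with length on the left, Clock and Rora sit at its long end, and Nfil3 sits low among genes of about 2 kb (2026 bases).

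Betaine in the drinking water of the knockout mice changed no member past the threshold. Against the knockout without betaine, 0 of 9 members passed in limma, 2 had an unadjusted p under 0.05 (Arntl and Nr1d2), and the median log2 difference was -0.04, against 0.00 over all genes tested (-0.002). Only 5 of 11852 genes, 0.0422%, passed at all, while 2672 had an unadjusted p under 0.05. In the fit without wild type replicate 3, in which 2.31% of all genes passed, no member was called either.

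Arntl was the member whose betaine libraries all exceeded the knockout. It read 3.70, 3.65 and 3.73 FPKM with betaine, against 3.04, 2.04 and 2.89 FPKM without it. The betaine libraries lay within 1.02-fold of each other and inside the range of the wild type (3.50 to 4.43 FPKM). The log2 difference was 0.42 ± 0.15 (n = 3 per group, limma adjusted p = 0.152). On the common-sum scale it was 0.80 with limma adjusted p = 0.0374 and Arntl was the 1 member called, beside 14.8% of all genes, but that scale moved the median of all genes in this comparison by 0.33. Arntl was the 1 member higher in every betaine library than in every knockout library, where 15.6% of all genes tested were.

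Nr1d2 was the 1 member lower in every betaine library, where 14.7% of all genes were. It read 2.30, 2.54 and 1.05 FPKM with betaine against 2.89, 3.53 and 2.68 FPKM without (log2 difference -0.57 ± 0.25, limma adjusted p = 0.209). Betaine replicate 3 was the lowest of all 9 libraries. Per1 read 0.179, 0.134 and 1.22 FPKM with betaine, from 17, 14 and 110 reads, against 1.17, 1.23 and 2.0 FPKM without. Betaine replicates 1 and 2 were far below every other library, but replicate 3 lay within the knockout range, and the log2 difference of -1.10 ± 0.50 did not pass (limma adjusted p = 0.233).

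Of the 4 members called lower in the knockout, the 3 besides Arntl moved less with betaine in these values. Nfil3 read 27.2, 24.7 and 26.9 FPKM with betaine, almost on top of the knockout values. Its log2 difference was -0.04 with a 95% interval from -0.39 to 0.31 (limma adjusted p = 0.906). Rora read 3.60, 5.05 and 3.79 FPKM (difference 0.13, interval -0.26 to 0.52, limma adjusted p = 0.683) and Clock 2.69, 4.30 and 3.89 FPKM (difference 0.09, interval -0.29 to 0.46, limma adjusted p = 0.785). Betaine replicate 2 was the highest of its group for both. The upper ends of these intervals lay below the sizes of the fitted gaps between knockout and wild type given above. Those gaps carry errors of their own and share the knockout libraries. For Clock the gap had a 95% interval from -0.99 to -0.24, and it was smaller with the length trend subtracted, as given above. How much of the Clock gap remained with betaine therefore cannot be said.

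Against the wild type, the betaine-supplemented knockout had 4 members lower and none higher: Nfil3, Rora, Nr1d2 and Per1. Of all genes tested 11.7% passed in this comparison, 5.78% lower and 5.87% higher. The median log2 difference of the 9 members was -0.65, against 0.01 over all genes tested (0.005). This comparison shares its wild-type libraries with the first and its betaine libraries with the second, so the 3 comparisons are not independent of each other.

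Nfil3 gave a log2 difference of -0.90 ± 0.15 (n = 3 per group, limma adjusted p = 0.0110) that passed in all 9 fits without 1 library. Rora gave -0.81 ± 0.17 (limma adjusted p = 0.0220). It was lost without wild type replicate 1 (0.0626), betaine replicate 1 (0.0646) or betaine replicate 3 (0.0802). Nr1d2 gave -1.16 ± 0.25 (limma adjusted p = 0.0213), with all 3 betaine libraries below all 3 wild-type libraries, and of the 9 fits without 1 library the one without wild type replicate 2 lost it (limma adjusted p = 0.0637). It was also lost with no filter on low values (limma adjusted p = 0.058). Both Nfil3 and Rora had a similar fitted difference in the knockout without betaine, whereas Nr1d2 did not pass there. The test of that step is the comparison of betaine with no betaine above, which did not pass.

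Per1 had the largest fitted difference of the members in this comparison, -2.10 ± 0.50 (n = 3 per group, limma adjusted p = 0.0319). No betaine library reached the lowest wild-type library, 1.92 FPKM. Wild type replicate 3, the highest, added to the size: without it the difference was -1.59 ± 0.42 (limma adjusted p = 0.0439). The call was lost without wild type replicate 1 (0.0619), knockout replicate 2 (0.0522), betaine replicate 1 (0.0957) or betaine replicate 2 (0.0698).

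The remaining members were not called in this comparison. Clock had a log2 difference of -0.53 ± 0.17 (limma adjusted p = 0.0686), with no overlap between the groups, and passed only without betaine replicate 2 (-0.65, limma adjusted p = 0.0463). Arntl, at -0.11 ± 0.15, had a 95% interval from -0.45 to 0.23 (limma adjusted p = 0.655). Cry1 read 8.98, 4.12 and 4.86 FPKM with betaine, 1 library near the wild type and 2 below every other library. Its difference was -0.65 ± 0.26 (limma adjusted p = 0.126), and it passed only without betaine replicate 1, the high library (-0.96, limma adjusted p = 0.0300). Per2 (0.649, 0.931 and 1.69 FPKM) and Nr1d1 (9.72, 6.31 and 0.890 FPKM) spread widely within the betaine group, with differences of 0.50 ± 0.25 and -0.13 ± 0.70 (limma adjusted p = 0.216 and 0.921).

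By overlap, 5 members were lower in every betaine library than in every wild-type library (Nfil3, Rora, Clock, Nr1d2 and Per1), where 16.2% of all genes were. With the length trend subtracted the same 4 members passed by limma adjusted p, beside 4.62% of all genes lower. Nfil3 stood at -1.07 (limma adjusted p = 0.0054), Nr1d2 at -1.11 (0.031), Per1 at -2.04 (0.0389) and Rora at -0.56 (0.0406). Without that trend and without wild type replicate 3, Rora was lost (-0.45, limma adjusted p = 0.0666) and 3 members were left, beside 5.74% of all genes. Leaving out that library alone kept the same 4 members, beside 6.4% of all genes. By overlap it then gave 6 members lower, Cry1 being added, and Per2 higher, where 24.4% of all genes were lower and 21.2% higher.

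**Figure D3:**
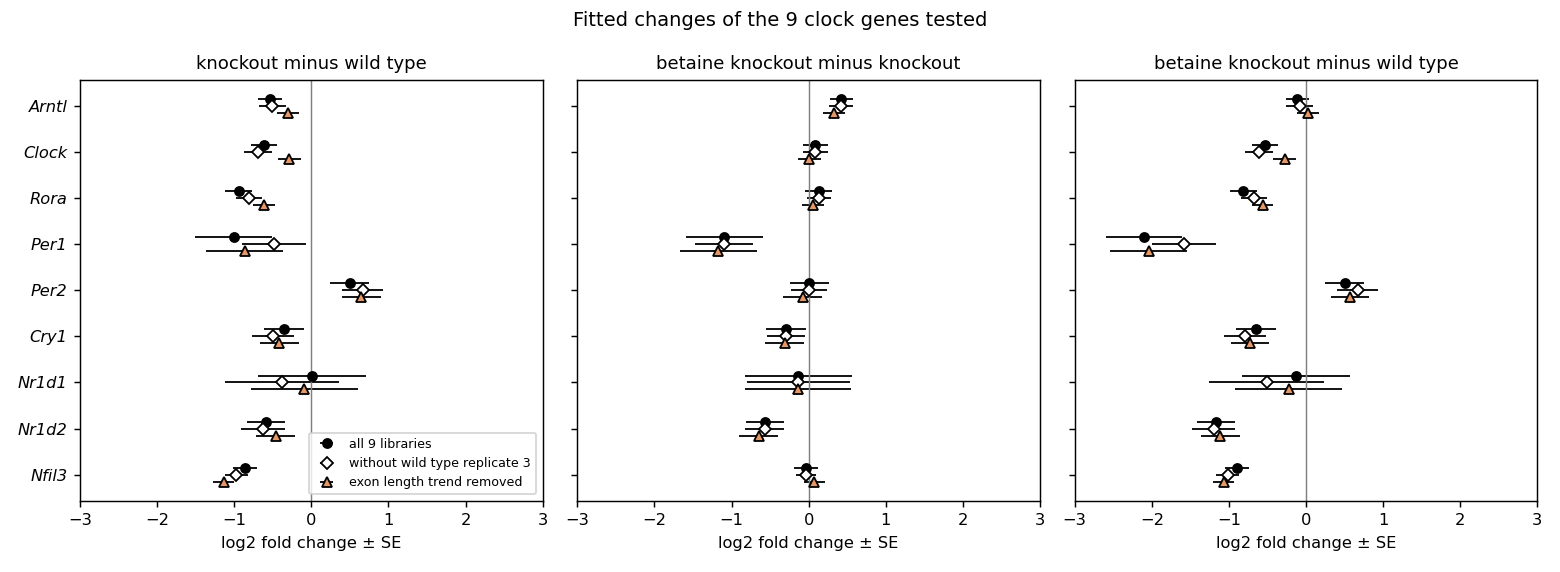
Log2 difference ± SE (horizontal axes) of the 9 tested clock genes (vertical axis) in the 3 comparisons, with all 9 libraries, without wild type replicate 3 and with the exon length trend removed. Nfil3 and Rora lie below 0 in all 3 versions of both comparisons with the wild type, and Nfil3 lies at 0 between the knockout groups.

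Within the betaine group some clock genes of replicate 3 differed from those of replicates 1 and 2. Replicate 3 had the highest Per2 (1.69 FPKM) and the lowest Nr1d1 (0.890 FPKM) and Nr1d2 (1.05 FPKM) of all 9 libraries. Of all genes tested, 12.4% were highest and 8.89% lowest in that library. Such extremes were not particular to it. Wild type replicate 2 had 3 members highest and 1 lowest, and betaine replicate 2 had 3 members lowest. Per2 and Nr1d1 are both targets of the Arntl and Clock pair that peak at different hours of the day. The log2 ratio of Per2 to Nr1d1 was 0.93 in betaine replicate 3 and -3.91 and -2.76 in betaine replicates 1 and 2. In the other groups it ran from -3.79 to -1.35, and wild type replicate 3 (-1.49) and knockout replicate 1 (-1.35) were the highest there. The ratio of Per1 to Nr1d1 split the betaine group in the same way, at 0.45 in replicate 3 against -5.76 and -5.56, and only wild type replicate 3 was higher (1.60). Per1 in betaine replicates 1 and 2 rests on 17 and 14 reads. Rora to Nr1d1 also split the group, at 2.09 in replicate 3 against -1.43 and -0.32. These ratios all share Nr1d1, which was lowest in betaine replicate 3, so their splits are not separate results. Per2 and Nr1d1 were paired after their extremes in that library were seen.

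The spread between libraries of 1 group differed greatly between members. In the betaine group the highest library was 10.9-fold the lowest for Nr1d1 and 9.06-fold for Per1, but 1.1-fold for Nfil3 and 1.02-fold for Arntl. In the knockout without betaine these ratios were 2.05 for Nr1d1, 1.71 for Per1, 1.11 for Nfil3 and 1.49 for Arntl. Nr1d1 and Per1 thus spread widely in the same group in which Nfil3 and Arntl hardly varied. In whole tissue, fewer cells of a type and less RNA per cell cannot be told apart.

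The other genes of the clock loop, 11 in the list used, gave no call in the knockout with all 9 libraries. Of the 6 that were tested none passed between knockout and wild type, although 4 had an unadjusted p under 0.05. Npas2 passed as higher when wild type replicate 3 was left out (0.93 ± 0.21, limma adjusted p = 0.0196). The 2 with the smallest p were Tef, a D-box activator related to Dbp (log2 difference -0.43 ± 0.16, limma adjusted p = 0.0782), and Cry2 (-0.55 ± 0.21, limma adjusted p = 0.0788). Cry2, the second Cry repressor, read 3.91 and 3.84 FPKM in betaine replicates 1 and 2 and 2.06 FPKM in betaine replicate 3. The knockout libraries read 2.05, 1.81 and 1.66 FPKM. Betaine replicate 3 thus sat beside the knockout, and the difference with betaine was 0.65 ± 0.21 (limma adjusted p = 0.132). Bhlhe40, a repressor that competes for E-boxes, read 7.08, 4.88 and 9.79 FPKM with betaine and 3.76, 2.53 and 4.10 FPKM without. The groups did not overlap, but the difference of 0.94 ± 0.48 did not pass (limma adjusted p = 0.278). Rorb was listed at 0 in every library, and Per3, Bhlhe41, Ciart and Arntl2 were too low to be tested.

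In the betaine-supplemented knockout against the wild type, 1 of these 6 genes was higher and 1 was lower, beside 5.87% and 5.78% of all genes tested. Npas2, which can take the place of Clock beside Arntl, read 1.44, 0.942 and 2.42 FPKM in the wild type, 2.41, 2.74 and 2.93 FPKM in the knockout, and 4.16, 4.17 and 2.70 FPKM with betaine. Every betaine library was above every wild-type library, and betaine replicate 3 was the nearest. The log2 difference was 1.03 ± 0.25 (limma adjusted p = 0.0333), and 1.3 without wild type replicate 3 (limma adjusted p = 0.00877), but each of the other 8 fits without 1 library lost the call. The log2 ratio of Npas2 to Clock was -1.95, -2.63 and -0.97 in the wild type and -0.54, -0.14 and -0.25 in the knockout. With betaine it was 0.63, -0.04 and -0.52, and neither knockout group overlapped the wild type. This ratio was chosen after values were seen, and no share over other pairs of genes was computed. The exon length trend was not removed from it, and Clock has 13727 exon bases. Tef was lower (-0.65 ± 0.16, limma adjusted p = 0.0341), a call that the length subtraction ended (0.0945). Tef passed in 3 of the 9 fits without 1 library.

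The enzymes that mark clock proteins for activity or destruction were lower in part. Between knockout and wild type, 5 of 15 fell and none rose, with a median log2 difference of -0.27, where 12.7% of all genes tested fell and 12.8% rose. With the length trend subtracted 2 were lower and 1 was higher, Fbxw7, a ubiquitin ligase subunit (0.46, limma adjusted p = 0.0343). Fbxw11, a ubiquitin ligase subunit that targets PER proteins, fell by 1.05 on the log2 scale (limma adjusted p = 0.0101). It read 9.76, 9.33 and 8.18 FPKM in the wild type and 5.06, 3.83 and 3.58 FPKM in the knockout. Csnk1d, the casein kinase that phosphorylates PER proteins, fell by 0.56 (limma adjusted p = 0.0105). Both calls held in all 9 fits without 1 library and with the length trend subtracted. Prkaa2, a catalytic subunit of the energy sensor AMPK that marks CRY1 for decay, was lower by -0.91 (limma adjusted p = 0.0164, or 0.0528 with the length trend subtracted). Ppp1cb, a phosphatase subunit, was at -0.55 (limma adjusted p = 0.0191, or 0.214 with the subtraction). Prkaa2 passed in 7 and Ppp1cb in 6 of the 9 fits without 1 library. With betaine against the wild type only Usp7, a deubiquitinase of CRY proteins, passed, lower at -0.47 (limma adjusted p = 0.042, or 0.113 with the subtraction), and 2 of the 9 fits without 1 library kept it.

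Chromatin cofactors of the clock proteins gave 5 lower and 1 higher of 15 in the knockout, with a median log2 difference of -0.18, against the same 12.7% and 12.8% of all genes. Without wild type replicate 3 the counts were 3 lower and 1 higher, and with the length trend subtracted 1 lower and 1 higher. Sin3a, the scaffold of a histone deacetylase complex that PER proteins recruit, read 4.70, 5.0 and 5.5 FPKM in the wild type and 2.47, 2.76 and 2.38 FPKM in the knockout. Its log2 difference was -0.87 ± 0.12 (limma adjusted p = 0.00546). Hdac3, the deacetylase through which REV-ERB proteins repress, rose by 0.48 ± 0.11 (limma adjusted p = 0.0137), from 5.49 to 5.93 FPKM in the wild type to 7.89 to 8.51 FPKM in the knockout. Its corepressor partner Ncor1 went the other way, at -0.68 ± 0.16 (limma adjusted p = 0.0157, or 0.112 with the length trend subtracted). Ep300, an acetyltransferase that works with the Clock and Arntl pair, was at -0.67 ± 0.12 (limma adjusted p = 0.00792, or 0.0743 with the subtraction). Sin3a and Ep300 passed in all 9 fits without 1 library, Hdac3 in 8 and Ncor1 in 6. With betaine, Ep300 (-0.77, limma adjusted p = 0.00855), Sin3a (-0.64, 0.0125) and Crebbp (-0.57, 0.0355, or 0.225 with the subtraction) were lower than in the wild type and Hdac3 was higher (0.45, 0.0288). Crebbp passed in 2 and Hdac3 in 3 of the 9 fits without 1 library.

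Liver genes under clock control showed few calls. Between knockout and wild type 1 of 16 was higher and 1 was lower, and the median log2 difference was -0.58 (background 12.8% higher and 12.7% lower). That median turned on wild type replicate 3: without it the median was 0.13, with 9 of 16 genes positive in place of 3, and 1 gene, Nampt, was called, lower. The lower gene was Nampt, the enzyme of NAD salvage that the Clock and Arntl pair drives (-0.66 ± 0.18, limma adjusted p = 0.0275, or 0.0624 with the length trend subtracted). The higher gene was Cyp2a5, a D-box gene of drug metabolism, at 145, 118 and 129 FPKM in the wild type and 178, 218 and 392 FPKM in the knockout. Its log2 difference of 0.93 ± 0.26 (limma adjusted p = 0.0302) did not pass without wild type replicate 3 (0.0568) or with the subtraction (0.135). Nampt passed in 5 and Cyp2a5 in 4 of the 9 fits without 1 library. With betaine, Cyp2a5 read 310, 383 and 333 FPKM and was higher than in the wild type by 1.38 ± 0.26 (limma adjusted p = 0.0143), the 1 gene of this list to pass there with all libraries. With wild type replicate 3 left out, Por, the electron donor of liver P450 enzymes, passed as well, lower (-0.60, limma adjusted p = 0.0348, from -1.11 with all libraries). Cyp2a5 passed in 8 of 9 fits without 1 library.

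The same list as a whole did not set betaine replicate 3 apart. Of its 16 genes, 0 were above every other library there and 2 were below. In betaine replicate 1 these counts were 1 and 3, and in betaine replicate 2 they were 1 and 2. Alas1, the first enzyme of heme synthesis, read 6.84 and 8.97 FPKM in betaine replicates 1 and 2 and 37.9 FPKM in replicate 3. The knockout libraries read 77.7, 72.5 and 43.6 FPKM. Betaine replicate 3 lay close to the lowest knockout library, and the log2 difference of -2.19 ± 0.67 did not pass (limma adjusted p = 0.127). Wee1, a kinase that delays cell division and carries E-boxes, had the smallest p of the list with betaine against no betaine (0.87 ± 0.25, limma adjusted p = 0.117).

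Wild type replicate 3 was extreme in the genes that respond to glucocorticoids, hormones that also carry a daily rhythm and induce Per1. Of 8 such genes, 7 were higher in that library than in any other, where 16.6% of all genes tested were. Fkbp5 read 31.8 FPKM there and at most 5.37 FPKM elsewhere. Clock outputs behaved alike, with 9 of 16 above every other library and 1 below. Lpin1, a phosphatidate phosphatase, read 113 FPKM there against at most 9.22 FPKM elsewhere, and Noct, a rhythmic phosphatase, 7.20 FPKM against at most 1.68 FPKM. Elovl3, a fatty acid elongase with higher levels in males, read 5.40 FPKM there and 333 to 780 FPKM elsewhere. Of the members, Per1 and Rora were highest in that library and none was lowest. Sex as read from Xist and the Y-linked genes, the glucocorticoid genes and the clock outputs all differed in this 1 library. Their parts cannot be told apart.

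The glucocorticoid list itself had 2 genes lower and none higher of 8 between knockout and wild type, with a median log2 difference of -0.99. Of all genes tested 12.7% were lower and 12.8% higher. Without wild type replicate 3 the median was -0.54 and 3 genes were lower, Fkbp5 being added (-0.94, limma adjusted p = 0.0185), beside 11.6% of all genes. Klf9, a transcription factor induced by glucocorticoids and under clock control, read 40.9, 27.5 and 62.7 FPKM in the wild type and 13.6, 8.68 and 10.4 FPKM in the knockout. It was lower by -1.90 ± 0.31 (limma adjusted p = 0.00655) and still so without wild type replicate 3 (-1.60, limma adjusted p = 0.00981). Nr3c1, the glucocorticoid receptor, was at -0.74 ± 0.14 (limma adjusted p = 0.0092). With betaine against the wild type, Zbtb16 (-2.20, limma adjusted p = 0.0305) and Klf9 (-1.18, limma adjusted p = 0.0412) passed, beside 5.78% of all genes lower. Klf9 did not pass without wild type replicate 3 (0.068). Zbtb16 passed in 4 and Klf9 in 2 of the 9 fits without 1 library.

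Temperature-responsive genes, another systemic cue of the liver clock, gave no call in any comparison with all 9 libraries. In the knockout against the wild type 2 of 7 had an unadjusted p under 0.05, and the smallest p was that of Hspa1b, a heat shock chaperone (-1.20 ± 0.52, limma adjusted p = 0.121). Wild type replicate 3 was its lowest wild-type library, at 3.89 FPKM against 21.6 and 12.9 FPKM, and without that library the difference was -1.86 (limma adjusted p = 0.0098). Cirbp, a cold-induced RNA-binding protein, read 8.80 and 7.03 FPKM in betaine replicates 1 and 2 and 4.14 FPKM in betaine replicate 3, where the wild type read 3.68 to 3.95 FPKM. Leaving out wild type replicate 3, 2 of 7 were lower with betaine than in the wild type, Hspa1b (-1.79, limma adjusted p = 0.0124) and Dnajb1, a co-chaperone (-1.07, 0.0390), beside 6.4% of all genes. The log2 difference of Cirbp from the wild type was 0.69 ± 0.22 with betaine (limma adjusted p = 0.0712).

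With betaine against no betaine none of the genes of these 6 lists passed in limma, although each list held 1 to 3 genes with an unadjusted p under 0.05. Without betaine replicate 1, 1 modifying enzyme, 1 output and 1 glucocorticoid gene passed as higher: Fbxw11, Wee1 and Nr3c1. The median log2 differences were 0.25 for the other loop genes, 0.16 for the modifying enzymes, 0.26 for the glucocorticoid genes, and close to 0 for the chromatin cofactors (-0.03), the outputs (-0.03) and the temperature genes (-0.05). Against the wild type the betaine group had medians of -0.06 for the other loop genes, -0.22 for the modifying enzymes, -0.44 for the chromatin cofactors, -0.28 for the outputs, -0.86 for the glucocorticoid genes and -0.20 for the temperature genes, beside 0.01 over all genes tested. The same medians lacking wild type replicate 3 were 0.09 for the other loop genes, -0.19 for the modifying enzymes, -0.31 for the chromatin cofactors, -0.16 for the outputs, -0.32 for the glucocorticoid genes and -0.16 for the temperature genes. Nr3c1 read 7.60, 11.2 and 8.99 FPKM with betaine against 6.78, 6.54 and 6.43 FPKM without. All 3 betaine libraries were higher, yet the difference of 0.45 ± 0.14 did not pass (limma adjusted p = 0.129).

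**Figure D4:**
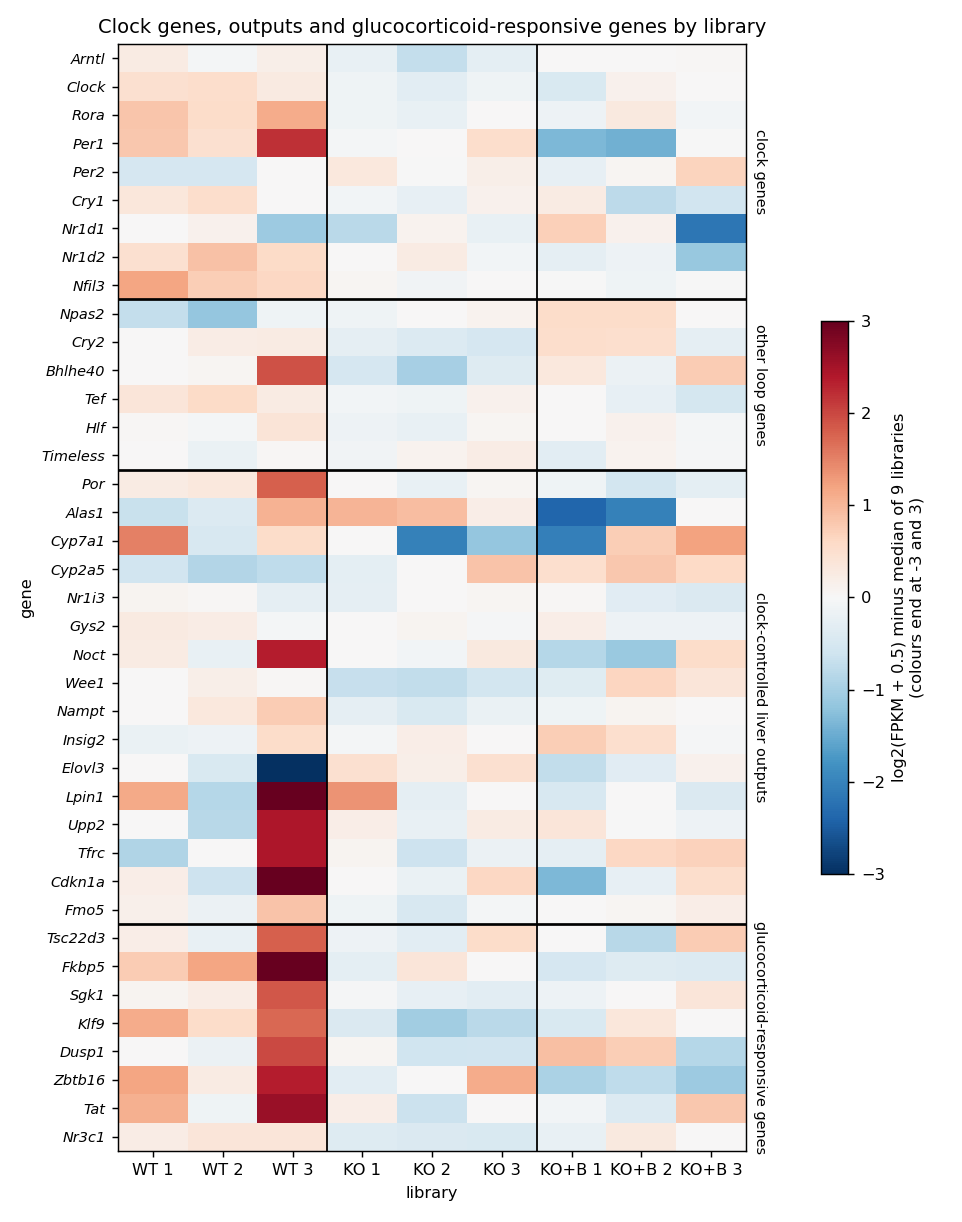
Each cell is a gene's log2(FPKM + 0.5) minus its median over the 9 libraries (colour scale, ending at -3 and 3), with genes down the vertical axis by list and libraries along the horizontal axis (WT wild type, KO Cth knockout, KO+B knockout with betaine). Wild type replicate 3 is high in 9 of 16 clock outputs and 7 of 8 glucocorticoid-responsive genes, and betaine replicate 3 has the lowest Nr1d1.

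The genes whose pattern was most like that of Arntl, by Pearson correlation of log2(FPKM + 0.5) over the 9 libraries, were Cdkl2 (0.968), Rab5b (0.962), Mpdz (0.959), Tango6 (0.954) and Ogfod1 (0.946). Over the 8 libraries without wild type replicate 3 the values were 0.966, 0.956, 0.957, 0.947 and 0.958. These are the 5 highest of all genes tested, and the libraries share their group differences and the trend with length, so the values only describe likeness. The same search for Dbp returned Srrt, Zfp943, Mllt10, Gmeb2 and Zc3h7a (0.867 to 0.960), which rests on the few reads of Dbp.

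Markers of other liver cells moved with the groups to some extent. The summed level of 5 macrophage markers was 110 to 137 FPKM in the wild type, 70.0 to 84.9 FPKM in the knockout and 52.3 to 145 FPKM with betaine. For 5 endothelial markers the ranges were 27.4 to 46.4, 21.8 to 28.7 and 16.8 to 26.3 FPKM. The 5 hepatocyte markers summed to 45050 to 62660, 38710 to 49980 and 30690 to 44050 FPKM. The lists for stellate cells, cholangiocytes, other leukocytes and red cells overlapped between the 3 groups, and no marker was at 0 in every library. The part of cell composition in the differences of the clock genes was not tested.

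Reads of 4 members can include those of a neighbour on the opposite strand, since the strand setting of the counting is not given in the sources used here. The exons of Nr1d1 overlap those of Thra by 263 bases, and those of Dbp overlap Sphk2 by 539 bases. Rora overlaps the predicted gene Gm15511 by 82 of its 13071 exon bases, and Arntl overlaps Gm45355 by 33 of 7523. For Dbp, at 3 to 19 reads, the overlap is a large part of 2993 exon bases.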

How the data were processed

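Poly-A RNA libraries of liver were made with an NEBNext Ultra kit, per the labels' protocols. The submitters' processing notes name HISAT2 2.0.5, featureCounts 1.5.0-p3, DESeq2 1.16.1 and mm10, with no role stated. The authors deposited FPKM for 54532 genes. Exon lengths (union of exons) came from GENCODE M21, on GRCm38. With them 98.29% to 98.62% of low values (at most 20 reads) lay within 0.05 of a whole read, which gave the depths.

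The 11852 genes that averaged 0.5 FPKM or more were tested on log2(FPKM + 0.5) in 1 limma 3.58.1 model (R 4.3.3, eBayes with trend and robust, two-sided, Benjamini-Hochberg within a comparison, threshold 0.05). The length trend was removed per library by lowess (span 0.3). Scripts were tested on simulated data. Python 3.11.15 and matplotlib 3.10.9 drew the figures. Promoter sequences are from RefSeq.

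The members, lists and tests were chosen with earlier results of these data known. Named genes are all members and, from each list and comparison, up to 4 past the threshold with the smallest p, or the 2 with the smallest p where fewer than 2 passed. Fkbp5, Lpin1, Noct and Elovl3, further values of Cry2, Npas2 and Cirbp, and the ratios between members were chosen after values were seen. A further loop gene is not reported here.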

Additional observations from a re-analysis of the deposited data

How the results depend on the processing

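The clock gene count moved between settings. Lower than wild type in the knockout were 4 members in the main analysis, 2 with no filter on low values (1865 genes called, against 3029 in the main analysis, which tested fewer), 2 with the length trend removed, 2 with that and wild type replicate 3 left out (1861 genes), and 2 to 5 when 1 library was left out (897 to 3243 genes). In the betaine group against the wild type they were 4, against 1 with no filter (531 genes called, against 1381), 1 in a fit of those 6 libraries alone (353 genes) and 2 to 4 without 1 library (347 to 1439 genes). For betaine against no betaine, 0 members passed in all fits without 1 library (0 to 882 genes). Here all genes called were 5, against 8 and 10 with pseudocounts of 0.1 and 1, 1 with no filter, 35 in a fit of 6 libraries, 0 with plain eBayes, 205 with the length trend and wild type replicate 3 removed, and 1754 on the common-sum scale, where 1 member, Arntl, passed.

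The common-sum scale moved the median of all genes by -0.36 in the knockout, where 13.8% of called genes were then higher against 50.1%, and Cry1 (-0.77, limma adjusted p = 0.025) and Nr1d2 (-1.02, 0.0263) joined the lower members.

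Some signs changed. Nr1d1 in the knockout became -0.39 on the common-sum scale, -0.09 with the length trend removed and -0.45 with wild type replicate 3 also left out. Betaine against no betaine turned Per2 to -0.013 at pseudocount 0.1 and -0.077 in both length fits, Nfil3 to 0.007 on quantile-normalized values and to 0.071 and 0.074 in the length fits, and Nfil3 to 0.325, Cry1 to 0.044 and Nr1d1 to 0.16 on the common-sum scale. Arntl with betaine against the wild type became 0.026 and 0.053 in the length fits. Leaving out 1 library gave Nr1d1 -0.38 to 0.26, -0.71 to 0.73 and -0.70 to 0.73 in the 3 comparisons, and for betaine against no betaine Per2 -0.25 to 0.21, Clock -0.032 to 0.26, Rora -0.002 to 0.22 and Nfil3 -0.079 to 0.006. The causes were not tested beyond what each setting removes.

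Replicate numbers did not pair the libraries of all groups: same-numbered libraries correlated at -0.227 to 0.098, and 6 of 18 correlated best with their own number. Those 6 were all between wild type and knockout without betaine, where same-numbered libraries correlated at 0.0487 to 0.098. With a replicate block, 4 members passed in the knockout (Per1, limma adjusted p = 0.0302, in place of Clock, 0.0533), 0 with betaine against no betaine and 3 with betaine against the wild type (671 genes). At 3 libraries a group, Per1, Per2, Cry1 and Nr1d1 had standard errors of 0.25 to 0.70, which limits what could be detected for them, and Dbp was limited by its reads.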
